A study of Mus musculus with 2 samples.

Results

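A set of 10 genes of hydrogen peroxide metabolism was examined in the small intestine of IL-9 transgenic and of wild-type mice. They were chosen by name and by role, with earlier results of these data known. Duox2, Duoxa1, Duoxa2, Nox1, Noxo1 and Cyba serve the oxidases that make peroxide or its precursor superoxide, and Gpx1, Gpx2, Gpx4 and Cat remove peroxide. All probe sets (groups of short probes against 1 transcript) annotated to these genes were taken, which gave 10 probe sets for 8 of the 10 members, out of 18194 genes named on the array. Duox2 and Nox1 had no probe set of their own name in the platform annotation and were not analysed here, so 4 of 6 peroxide-making and 4 of 4 peroxide-removing genes were measured.

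The IL-9 transgenic pool and the wild-type pool each held total RNA from the small intestine of 3 mice of the BALB/c background, 6 to 8 weeks old and given no treatment. Each pool was hybridised to 1 array, so there is 1 array against 1 array, the spread between mice is unknown, no p-value can be given, and every direction below describes these 2 pools only. IL-9 is a cytokine of type 2 immunity that drives mast cell growth, and the series title places the study in work on mast cells, gut permeability and reactions to food antigens. Which promoter drives the transgene, and in which cells, is not given in the sources used here. Il9, with a single probe set, read 62.2 in the transgenic pool, against 71.6 in the wild-type pool, both under the expression filter described below. The sequence of the transgene is likewise not stated there, so this probe set cannot check the labels.

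The lining of the gut makes hydrogen peroxide at its surface with enzymes that pass electrons from NADPH to oxygen. DUOX2 does this at the apical membrane of epithelial cells and leaves the endoplasmic reticulum only with its maturation factor DUOXA2, while NOX1 makes superoxide with the subunits NOXO1 and p22phox, the product of Cyba. On the removing side, catalase breaks peroxide down in peroxisomes, and the glutathione peroxidases reduce it with glutathione. GPX1 is found in most cells, GPX2 is the form typical of the gastrointestinal epithelium, and GPX4 acts on lipid peroxides in membranes.

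The values are probe set intensities on a linear scale. Differences are given as log2(intensity + 1) of the transgenic pool minus that of the wild-type pool, and folds are on this same scale, which makes folds of dim genes too small. The expression filter kept genes whose higher value reached the median of all values, an intensity of 78.5, and a difference of 2-fold was counted as higher or lower. Over all 11862 genes past the filter the median difference was 0.01, and 95 percent of them lay between -0.49 and 0.50. Probe sets of the same gene differed among themselves with an SD of 0.23 on that scale. They read the same RNA on the same 2 arrays, so this SD holds no spread between mice, pools or arrays. The ratio of 3′ to 5′ signal, a sign of RNA integrity, was 1.33 in the transgenic pool, against 1.61 in the wild-type pool, for actin. For Gapdh it was 1.08 in the transgenic pool, against 1.22 in the wild-type pool. The tissue label held in both pools: 9 of 9 measured epithelial markers of the small intestine, from Fabp2 and Apoa4 to Vil1, passed the filter.

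The promoters of Duoxa2 and Gpx2, the members that differed most between the pools, are shown here with those of their paralogs Duoxa1 and Gpx1, which differed little. The windows run from 250 bases before to 50 bases after the annotated start, 5′ to 3′ on the strand of the gene, from RefSeq on GRCm38.p6. Capitals mark the single match found to the motifs described next.
Duoxa2, chr2:122298650-122298949, plus strand: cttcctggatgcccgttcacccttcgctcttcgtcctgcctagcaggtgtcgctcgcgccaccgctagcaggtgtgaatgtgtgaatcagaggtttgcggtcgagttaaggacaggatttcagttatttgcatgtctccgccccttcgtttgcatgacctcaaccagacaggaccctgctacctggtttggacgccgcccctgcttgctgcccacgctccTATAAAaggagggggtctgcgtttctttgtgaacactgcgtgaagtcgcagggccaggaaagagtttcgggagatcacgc
Duoxa1, chr2:122313681-122313980, minus strand: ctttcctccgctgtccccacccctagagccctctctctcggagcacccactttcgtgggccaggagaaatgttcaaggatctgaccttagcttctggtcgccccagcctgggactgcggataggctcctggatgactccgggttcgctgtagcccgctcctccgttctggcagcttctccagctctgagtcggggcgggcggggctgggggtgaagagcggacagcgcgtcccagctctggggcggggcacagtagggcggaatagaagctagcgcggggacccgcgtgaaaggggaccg
Gpx2, chr12:76795505-76795804, minus strand: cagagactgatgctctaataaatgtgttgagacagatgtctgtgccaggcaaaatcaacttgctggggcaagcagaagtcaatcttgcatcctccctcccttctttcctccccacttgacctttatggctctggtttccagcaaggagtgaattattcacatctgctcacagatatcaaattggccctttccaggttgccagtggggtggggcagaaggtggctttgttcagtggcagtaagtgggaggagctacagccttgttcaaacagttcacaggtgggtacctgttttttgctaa
Gpx1, chr9:108338830-108339129, plus strand: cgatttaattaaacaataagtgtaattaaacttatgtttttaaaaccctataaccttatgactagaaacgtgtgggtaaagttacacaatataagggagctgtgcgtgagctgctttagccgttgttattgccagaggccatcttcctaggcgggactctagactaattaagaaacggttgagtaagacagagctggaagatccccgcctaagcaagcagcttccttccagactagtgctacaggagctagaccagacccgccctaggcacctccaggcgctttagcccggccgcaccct

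All 10 members matched a window in that table, 13 windows in all, since Gpx4 has several starts. Both strands were searched for 3 motifs. These were TATAAA (the TATA box, in 13.6% of 32851 promoter windows), TGACNNNGC (the core of the antioxidant response element, in 12.4%) and TTCNNNGAA (bound by several STAT factors, in 8.3%). Duoxa2 alone among the members held a match, a TATAAA that begins 30 bases before its start. The other 9 members hold none of these letters in their windows, which says nothing of the factors themselves. Duox2 and Duoxa2 lie head to head, with 673 bases between the starts used for these windows, although the annotated span of Duox2 reaches closer to Duoxa2, and Duoxa1 and Duox1 follow in the same cluster.

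Duoxa2 was the peroxide-making gene with the largest difference between the pools. It read 561 in the transgenic pool, against 83.1 in the wild-type pool, and was thus 6.68-fold higher, or 2.74 on the log2 scale. Only 6 genes of the 11862 past the filter had a larger positive difference. The wild-type value lay just above the filter, so Duoxa2 passed it in both pools. The difference is 11.8 times the SD between probe sets of the same gene, which is not a spread between mice. Its promoter is the one printed above with the TATA box. Its paralog Duoxa1, the maturation factor of DUOX1, read 160 in the transgenic pool, against 137 in the wild-type pool, a difference of 0.22, so that the difference of Duoxa2 exceeded that of Duoxa1 by 2.52 on the log2 scale.

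The remaining genes of the cluster did not share the difference as far as they were measured. Duox1, the dual oxidase served by Duoxa1, read 35.6 in the transgenic pool, against 36.8 in the wild-type pool, both under the filter. Shf, the next gene beyond it, differed by 0.11 on the log2 scale. Duox2, the oxidase that DUOXA2 serves, has no value here, so the difference in Duoxa2 concerns the RNA of a maturation factor and not that of the enzyme.

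The NOX1 subunits differed far less. Noxo1, which organises the NOX1 complex at the membrane, read 583 in the transgenic pool, against 547 in the wild-type pool, which differ by 0.09 on the log2 scale. Cyba, whose product stabilises NOX1 and the phagocyte oxidase, read 894 in the transgenic pool, against 1168 in the wild-type pool, a difference of -0.38. That value is 1.65 times the SD between probe sets and lies inside the range that holds 95 percent of genes, so no difference of Cyba beyond the general spread was seen.

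**Figure D1:**
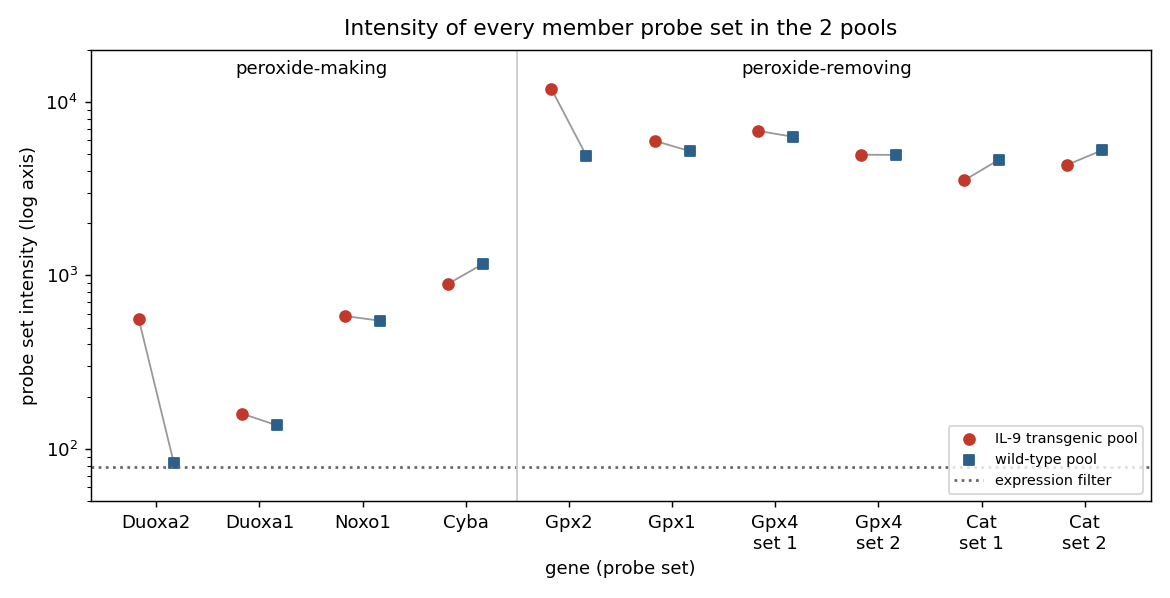
Probe set intensity (vertical, log axis) of each member probe set in the IL-9 transgenic pool (red circles, left of each pair) and the wild-type pool (blue squares), 1 array each, with the expression filter as a dotted line. Duoxa2 (561 in the transgenic pool, 83.1 in the wild-type pool) and Gpx2 (11857 in the transgenic pool, 4874 in the wild-type pool) have the widest gaps, and both Cat probe sets lie lower in the transgenic pool.

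Gpx2 was the peroxide-removing gene with the largest difference. It read 11857 in the transgenic pool, against 4874 in the wild-type pool. This is 2.43-fold higher, or 1.28 on the log2 scale, and 5.51 times the SD between probe sets. Among the 2966 genes at or above the 75th percentile of mean level of those past the filter, 0.708% were higher by 2-fold, and Gpx2 ranked 15 among them. Gpx1, the ubiquitous form, read 5968 in the transgenic pool, against 5195 in the wild-type pool, a difference of 0.20. The difference of Gpx2 thus exceeded that of Gpx1 by 1.08 on the log2 scale, although both enzymes reduce hydrogen peroxide with glutathione.

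Gpx4 was nearly level between the pools in both of its probe sets. The brighter set read 6803 in the transgenic pool, against 6290 in the wild-type pool, a difference of 0.11. The other read 4956 in the transgenic pool, against 4943 in the wild-type pool, a difference of 0.0037. The names of both probe sets, like those of Noxo1, Cyba and the dimmer set of Cat, mark possible matches to several transcripts. For all of them but the dimmer set of Gpx4, the mark stands for transcripts of the same gene.

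Cat, the gene of catalase, was the removing member with values below 0, in both of its probe sets. The brighter set read 4334 in the transgenic pool, against 5263 in the wild-type pool, a difference of -0.28. The other read 3522 in the transgenic pool, against 4648 in the wild-type pool, a difference of -0.40. The sets share a direction but come from the same RNA, both lie inside the range of 95 percent of genes, and neither reached 2-fold.

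Set against each other, the peroxide-making and the peroxide-removing genes had the same composition: 1 gene past 2-fold, a pair of genes near 0 and 1 gene below 0. Of 4 measured peroxide-making genes 1 was higher by 2-fold, and of 4 peroxide-removing genes 1 was higher by 2-fold, against 0.607% of all genes past the filter. No member was lower by 2-fold, against 0.202% of all genes. The members were chosen with earlier results of these data known, so these shares are not an independent contrast. The median log2 difference was 0.157 for the making genes and 0.156 for the removing genes, so the medians do not separate the roles at this setting. With probe sets left out whose names mark possible matches to several transcripts, which removes Noxo1, Cyba and Gpx4, the medians were 1.48 for the making genes and 0.20 for the removing genes. The making median then rests on Duoxa1 and Duoxa2 alone. The mean was 0.67 for the making genes and 0.33 for the removing genes. Without Duoxa2 the mean of the remaining 3 making genes was -0.02, and without Gpx2 that of the remaining 3 removing genes was 0.01. In each role 2 of 4 genes lay within the SD between probe sets, where 71.4% of all genes lay. Members are not replicates, and with 1 array for each pool this comparison has no test.

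**Figure D2:**
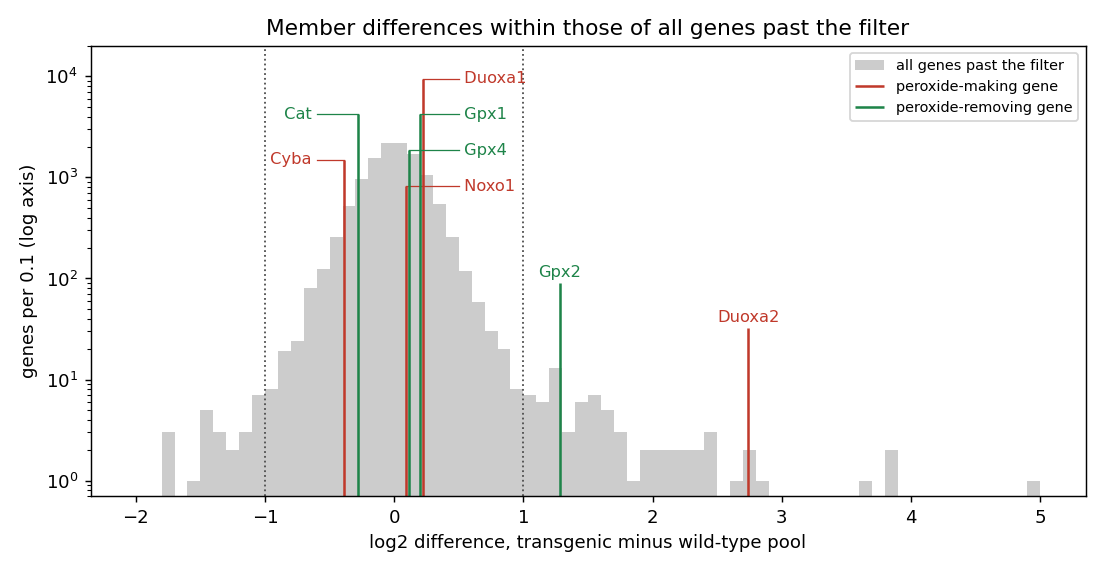
Log2 differences (transgenic minus wild-type pool) of all 11862 genes past the filter as a grey histogram with a logarithmic count axis, and of the 8 measured members as lines, red for peroxide-making and green for peroxide-removing genes; line heights only separate the labels. Dotted lines mark 2-fold, and Duoxa2 and Gpx2 lie beyond it while the other 6 members lie between -0.38 and 0.22.

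Further parts of the same pathways were read from 11 gene lists, some of which share genes. These lists too were chosen with earlier results of these data known. A total of 103 distinct genes passed the filter. Me1 was the only one of them that was higher by 2-fold, 0.971% of the 103 against 0.607% of all genes, and 0 were lower by 2-fold. Me1, the cytosolic malic enzyme, which regenerates the NADPH that oxidases and glutathione reductase consume, read 2016 in the transgenic pool, against 382 in the wild-type pool, 5.27-fold higher, and its other probe set was 3.47-fold higher. The other NADPH genes past the filter stayed under 2-fold, while G6pd2 and Me3 lay under the filter and G6pdx was not analysed here. With Me1, the list had 8 genes past the filter, 4 above 0 and 4 below 0 with a median of -0.06, and Nnt, the mitochondrial transhydrogenase, differed by -0.62 in 1 probe set and by 0.06 in another.

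Glutathione supply showed its largest value in Gsr, glutathione reductase, which returns oxidised glutathione to the form that the peroxidases use. Its brighter probe set read 1195 in the transgenic pool, against 741 in the wild-type pool, a difference of 0.69. Its other set read 1137 in the transgenic pool, against 370 in the wild-type pool, 3.06-fold higher, so the sets share a direction but only the dimmer passes 2-fold. Of the other members of this list, Chac1, which degrades glutathione, differed by 0.60, the synthesis genes Gclc, Gclm and Gss by 0.22, 0.04 and 0.04, and the glutaredoxins Glrx and Glrx2 by 0.0077 and -0.04, while the cystine carrier Slc7a11 lay under the filter. In all, 6 of 7 genes past the filter lay above 0, against 51.4% of all genes, with a median of 0.04. The 6 of 7 holds for the brightest probe set of each gene. Gclm and Gss also had a set below 0, at -0.15 and -0.03, and Glrx2 had one above 0, at 0.05.

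The other glutathione peroxidases showed no difference of 2-fold. Gpx3, the secreted form, read 1491 in the transgenic pool, against 1212 in the wild-type pool, a difference of 0.30. Gpx5 and Gpx8 differed by -0.11 and -0.02, and Gpx6 and Gpx7 lay under the filter. In the peroxiredoxin and thioredoxin list 7 of 12 genes lay above 0 with a median of 0.04. The largest values were 0.68 in Prdx4, the peroxiredoxin of the endoplasmic reticulum, with 0.05 in the lowest of its probe sets past the filter, and 0.49 in Prdx3, the mitochondrial form.

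GPX1, GPX2 and GPX4 carry selenocysteine, and none of the measured genes that make or insert it reached 2-fold. The selenoprotein synthesis list had 3 of 10 genes above 0, a median of -0.08 and 0 past 2-fold. Its largest values were -0.36 in Sephs2, which makes the selenium donor, and 0.22 in Sepsecs, which makes selenocysteine on its tRNA. The probe sets of Sephs2 past the filter reached 0.21, so no direction is given for it.

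Gpx2 is also a known target of NRF2, the transcription factor of the antioxidant response. In the list of NRF2 and its targets 13 of 15 genes lay above 0, against 51.4% of all genes past the filter. The 13 of 15 holds for the brightest probe set of each gene. Gclm, Srxn1 and Gstm1 also had a set below 0, and Keap1 had one above 0. The median was 0.22 and 0 genes passed 2-fold. The list is not a full set of NRF2 targets: it does not hold Gpx2 itself, nor Me1 and Gsr, whose values are given above. Gstm3 and Gsta2, glutathione S-transferases, had the largest values at 0.69 and 0.52, and Nqo1, a quinone reductase, differed by 0.42. Nfe2l2, the gene of NRF2 itself, differed by 0.10. The probe sets of its inhibitor Keap1 lay at -0.36 and 0.43, so no direction is given for it. All values of this list lie below the 1.28 of Gpx2. The part of NRF2 in the Gpx2 value was not tested.

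On the making side, the NADPH oxidase list had 7 of 7 genes past the filter above 0, against 51.4% of all genes, and 0 past 2-fold, with a median of 0.13. The 7 of 7 holds for the brightest probe set of each gene, since those of Cdc42, a small GTPase, ran from -0.24 to 0.16. Its largest values were in genes of the blood cell oxidase, 0.50 in Ncf1, a cytosolic organiser (273 in the transgenic pool, against 193 in the wild-type pool), and 0.48 in Rac2, a small GTPase. Cybb, the catalytic subunit of that oxidase and the partner of Cyba, differed by 0.14, while Cyba itself differed by -0.38. Macrophage markers, 7 of 7 past the filter, summed to an intensity of 6082 in the transgenic pool, against 6703 in the wild-type pool, with 4 of 7 above 0 and a median difference of 0.03. Lyz2, a lysozyme, read 1995 in the transgenic pool, against 2586 in the wild-type pool, which is most of the gap between the sums. Of 7 measured neutrophil markers 1 passed the filter, and S100a8 and S100a9 read at most 34.2 in either pool. The part of these cells in the oxidase values was not tested. In bulk tissue, a different number of cells of a type and a different amount of RNA per cell cannot be told apart.

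Other enzymes that yield peroxide lay on both sides of 0 without reaching 2-fold. Of these, 6 of 15 genes past the filter lay above 0 and 9 below, and the median was -0.14. Sod1, the cytosolic dismutase that turns superoxide into peroxide, read 2723 in the transgenic pool, against 4279 in the wild-type pool, a difference of -0.65. Its 4 probe sets past the filter ran from -0.65 to -0.04, all below 0. Dao, the D-amino acid oxidase, differed by -0.58.

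Catalase resides in peroxisomes, and the peroxisome list had 11 of 18 genes above 0 with a median of 0.03. The largest differences were negative, -0.72 in Pex11a, a factor of peroxisome division (601 in the transgenic pool, against 991 in the wild-type pool), and -0.54 in Pex6, an import ATPase. The other probe set of Pex11a differed by -0.34, and those of Pex6 past the filter reached 0.32, so no direction is given for Pex6.

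**Figure D3:**
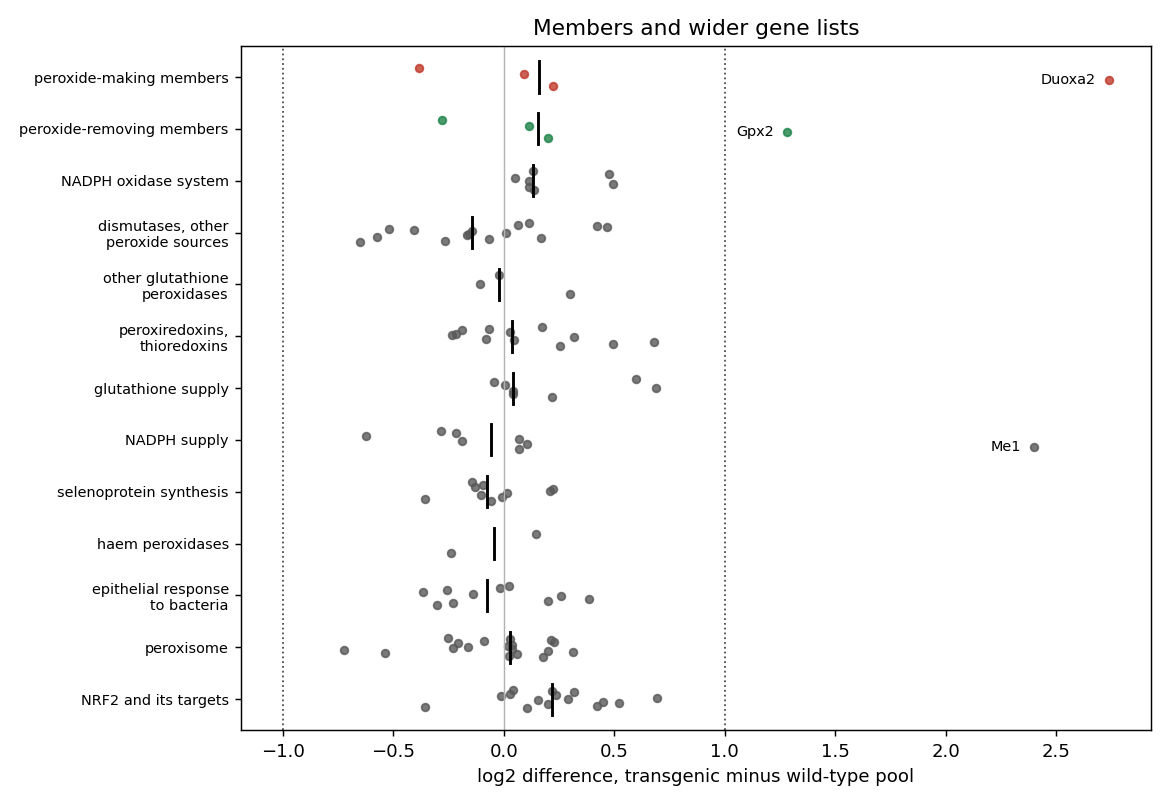
Log2 differences (transgenic minus wild-type pool) of the measured members by role and of the genes past the filter in 11 wider lists, 1 point a gene, with black bars at the median and dotted lines at 2-fold. Duoxa2, Gpx2 and Me1 are the points beyond 2-fold, and the list medians run from -0.14 to 0.22.

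A further list held epithelial genes known to respond to bacteria, as Duox2 does. Of 16 measured genes 6 lay under the filter and 0 of the other 10 differed by 2-fold. Any part of bacteria in the Duoxa2 value was not tested. In that list 4 of 10 genes past the filter lay above 0, the median was -0.08. The largest values were 0.39 in Ido1, which degrades tryptophan, and -0.37 in Tnfaip3, an inhibitor of NF-kappaB, whose other probe set past the filter lay at 0.19. Nos2, the inducible nitric oxide synthase, read 77.2 in the transgenic pool, against 95.5 in the wild-type pool. Lcn2, an iron-binding defence protein, read 33.1 in the transgenic pool, against 26.0 in the wild-type pool, both under the filter, as were Saa1 and Saa2.

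The genes whose 2 log2 values lay nearest to those of Duoxa2 were Pnliprp1, Avil and Retnla, at distances of 0.33, 0.69 and 0.79 over the 2 arrays. Nearest genes were picked by these values, so a like direction follows from the choice. Pnliprp1, a lipase-related gene, read 446 in the transgenic pool, against 81.5 in the wild-type pool. Avil, an actin regulator of tuft cells, read 353 in the transgenic pool, against 73.9 in the wild-type pool, where it was under the filter. Retnla, a resistin-like protein of type 2 immunity, read 360 in the transgenic pool, against 115 in the wild-type pool. Its difference was 1.64, beside the 2.74 of Duoxa2. Nearest to Gpx2 was Ang4, an antimicrobial ribonuclease of secretory cells, at a distance of 0.37, with 15190 in the transgenic pool, against 4590 in the wild-type pool. Gsto1 and Igkv8-30 followed at 0.60 and 0.65, with differences of 0.47 and 0.38, well below that of Gpx2. The genes beside Gpx2 on its chromosome, Churc1 and Rab15, differed by 0.47 and 0.28.

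Markers of some cell types differed between the pools, and their part in the values of Duoxa2 and Gpx2 was not tested. The epithelial markers, 9 of 9 past the filter, summed to 104095 in the transgenic pool, against 114083 in the wild-type pool, with 1 above 0, 0 past 2-fold and a median difference of -0.11. The 6 measured tuft cell markers summed to 1456 in the transgenic pool, against 468 in the wild-type pool. Of these markers 4 were higher by 2-fold (0.607% of all genes were), and all 4 were over the filter in the transgenic pool but not in the other. Dclk1, among them, ran from 0.68 to 1.95 over its probe sets past the filter, and its mean difference over all its sets was 0.81. The 6 measured mast cell markers summed to 5539 in the transgenic pool, against 978 in the wild-type pool. Of these 4 were higher by 2-fold, among them Cpa3 and Fcer1a, which were under the filter in the wild-type pool. Goblet cell markers, 6 of 6 past the filter, summed to 60455 in the transgenic pool, against 55575 in the wild-type pool, with a median difference of 0.38 and 0 past 2-fold. Clca1, which goblet cells secrete, stood at 0.87, and at 1.17 in its other probe set, the factor Spdef at 0.84 and Agr2, a secretory pathway protein, at 0.66, while Muc2, Fcgbp and Zg16 lay between -0.22 and 0.09.

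Nox1 is known for high levels in the colon, and the list of genes prominent there gave mixed values. Of 6 genes past the filter 3 lay above 0 and 3 below, with a median of 0.03. Car4, a membrane carbonic anhydrase, was the only one higher by 2-fold, with 5269 in the transgenic pool, against 2177 in the wild-type pool, a difference of 1.27 beside the 1.28 of Gpx2. The other probe set of Car4 differed by 0.97, just under 2-fold. Muc3, a mucin gene, read 6670 in the transgenic pool, against 3776 in the wild-type pool, a difference of 0.82. Aqp8, a water channel, read 107 in the transgenic pool, against 179 in the wild-type pool, a difference of -0.73. Red cells are rich in catalase and GPX1, but 0 of 4 measured red cell markers passed the filter, and they summed to 129 in the transgenic pool, against 142 in the wild-type pool. Of 5 measured markers of the exocrine pancreas, Pnliprp1 was higher by 2-fold, and the other 4 summed to 565 in the transgenic pool, against 586 in the wild-type pool. Of 4 liver markers, Apoh and Cyp2e1 were higher by 2-fold, and the rest summed to 236 in the transgenic pool, against 231 in the wild-type pool. Apoh had 1 probe set past the filter, and its mean difference over all its sets was 0.62. Of 3 adipocyte markers, Adipoq was higher by 2-fold, and the rest summed to 637 in the transgenic pool, against 472 in the wild-type pool. Cyp2e1 and Adipoq were likewise under the filter in the wild-type pool. Beside these counts, 0.607% of all genes past the filter were higher by 2-fold. The marker lists were also chosen with earlier results of these data known.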

How the data were processed

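Total RNA from 1 pool of 3 mice per group (10 µg) was biotin-labelled and hybridised to Affymetrix MOE430 2 arrays, per the labels' protocols. The authors deposited probe set intensity values on a linear scale, from 5.60 to 24147 in the transgenic pool and from 5.75 to 25799 in the wild-type pool. The submitters' processing notes name RMA and no version of it. RMA equalises the distributions of arrays, so a shift of most genes by the same amount could not be seen. There are no detection calls, and the genome build is not given in the sources used here. The number of arrays limits the precision.

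Of 45101 probe sets, 34958 carried 1 gene symbol in the platform annotation, 932 several and 9211 none. Symbols were checked through Entrez identifiers in the RefSeq table of GRCm38.p6 (34754 matched, 0 updated). The probe set with the highest mean stood for its gene, with a pseudocount of 1. Computations used Python 3.11.15, numpy 2.4.6 and pandas 2.3.3, and were checked on simulated data.

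The members, the lists and the rules were chosen with earlier results of these data known. The genes named are all members, from each list those past 2-fold and the 2 with the largest difference (lists of up to 8 genes whole), and the 3 genes nearest to Duoxa2 and Gpx2. Cybb, Duox1, Nqo1, Nos2, Lcn2, Saa1, Saa2, Nfe2l2, Keap1, S100a8, S100a9, Shf, Churc1, Rab15, Cdc42, G6pd2, G6pdx, Me3 and the markers named were chosen after their values were seen.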

Additional observations from a re-analysis of the deposited data

How the results depend on the processing

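The 8 alternatives were a pseudocount of 0 or 16, no filter, a filter at the 75th percentile, the mean over the probe sets of a gene, leaving out probe sets named for possible matches to several transcripts, quantile normalization and centring each array on its median. Of 116 values under them, 114 kept their side of 2-fold, moved by less than the SD of 0.23 between probe sets or, as counts, stayed within 1.5 times, and no value past 2-fold changed sign. The difference of medians between making and removing genes, which lies near 0, changed sign within that SD, to -0.01 with a pseudocount of 16 and -0.06 at the stricter filter (75th percentile). Duoxa2 ran from 2.54 to 2.75 and Gpx2 from 1.26 to 1.28 on the log2 scale. With those probe sets left out, the median of the peroxide-making genes was 1.48 and the difference of medians between making and removing genes was 1.28, against 0.00076 as reported. That alternative leaves 2 making genes, Duoxa1 and Duoxa2, and drops Noxo1, Cyba and Gpx4. It also leaves out sets marked only for transcripts of the same gene, as those of Noxo1 and Cyba are. With the filter at the 75th percentile Duoxa1 dropped out. No paired analysis was possible because each group has 1 array. Weak signal limits Duox1 and the wild-type value of Duoxa2, which lie near or under the filter.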

Other observations

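Several haem peroxidases use hydrogen peroxide to form microbicidal oxidants. Apart from Pxdn, the measured haem peroxidase genes lay near or under the filter in both pools. Of 4 measured genes 2 passed the filter. Lpo, lactoperoxidase, measured 78.0 in the transgenic pool, against 92.1 in the wild-type pool, a difference of -0.24. Pxdn, peroxidasin of the basement membrane, read 196 in the transgenic pool, against 177 in the wild-type pool, a difference of 0.15. Mpo and Epx, the peroxidases of neutrophils and eosinophils, read 73.0 and 20.0 in the transgenic pool, against 65.5 and 19.4 in the wild-type pool, all under the filter. The other eosinophil granule gene measured, Prg2, read 24.9 in the transgenic pool, against 28.8 in the wild-type pool. Ccr3 read 31.6 in the transgenic pool, against 25.4 in the wild-type pool, and Il5ra 10.4 against 10.3. Siglecf read 156 in the transgenic pool, against 30.0 in the wild-type pool, where it was under the filter. Of 5 measured eosinophil markers, it alone passed the filter, and it was higher by 2-fold, as 0.607% of all genes were.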
